A study of Homo sapiens with 4 samples.

Results

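Collagen genes were followed in H1792, an established line of human lung cancer cells, after treatment with ACBI1 or with the solvent DMSO. They were found by symbol, as every gene named COL, a type number, the letter A and a chain number. There were 44 such symbols among 61228 features in the count tables. The 31 with 10 or more counts in at least 2 libraries are described gene by gene, and the other 13 are listed where their class is described. The classes follow the structure of the proteins: fibrillar, type IV of basement membranes, type VI, FACIT (collagens that sit on the surface of other fibrils), transmembrane, and the remaining types.

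Collagens are secreted or membrane-bound proteins of 3 chains wound into a helix, and each chain has its own gene. Fibrillar collagens form the ropes of connective tissue, type IV collagen forms the sheet beneath epithelia, and type VI collagen forms beaded filaments around cells. In lung tumours, fibrillar collagen is usually ascribed to fibroblasts, but carcinoma cells can transcribe collagen genes themselves. Newly made chains are hydroxylated and folded in the endoplasmic reticulum, trimmed outside the cell, crosslinked by lysyl oxidases and sensed by integrins and discoidin domain receptors.

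Both groups carried the same label for genotype (WT), and both were sampled after 96 h. The DMSO group held 2 libraries, and the ACBI1 group, at a dose that the labels write as 1 mM, also held 2. ACBI1 is a degrader that joins SMARCA2, SMARCA4 and PBRM1, parts of the SWI/SNF chromatin remodelling complexes, to the VHL ubiquitin ligase. The title of the series concerns SMARCA4, tumour immunity and the STING pathway. The collagen genes address which matrix transcripts differed between cells given ACBI1 and cells given DMSO. All cells came from 1 line, and nothing in the labels says that the numbered replicates were separate cultures, so p-values measure the spread between these libraries only. Proteins were not analysed here. The degrader acts on protein, so the transcripts of its targets do not check the labels: SMARCA4 was at 284 and 216 CPM with DMSO and at 414 and 398 CPM with ACBI1 (edgeR adjusted p 0.0583). SMARCA2 was at 22.8 and 24.4 CPM against 17.5 and 18.4 CPM and was not called either (adjusted p 0.163). PBRM1, at 55.0 and 45.3 CPM against 55.6 and 51.6 CPM, was also not called (adjusted p 0.734).

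Counts in genes ranged from 64281850 to 86010100 per library, and every value given for a group rests on n = 2 libraries. Keratin genes of simple epithelia were present in each library. The summed level of 6 epithelial markers was 982 and 1035 CPM (counts per 1000000 gene counts, scaled by TMM) with DMSO and 323 and 202 CPM with ACBI1, with KRT7 alone at 678 and 680 CPM against 179 and 60.3 CPM. EPCAM, an epithelial adhesion protein, was at 5.38 and 2.78 CPM with DMSO and at 15.6 and 4.84 CPM with ACBI1, a log2 difference of 1.32 with overlapping groups that was not called (adjusted p 0.179). CDH1, which encodes E-cadherin, had 4 and 16 counts with DMSO and 7 and 6 with ACBI1. Markers of other cell types were measured because collagens are typical of them. The 6 fibroblast markers summed to 34.3 and 87.8 CPM with DMSO and 18.4 and 23.3 CPM with ACBI1. Within that list PDGFRA was called lower (adjusted p 0.0134), FAP was called lower (adjusted p 0.0253), ACTA2 had a log2 difference of 0.02, THY1 had 0 counts in both DMSO libraries, and PDPN had 3 counts or fewer in each library. The 5 endothelial markers summed to 13.4 and 49.1 CPM with DMSO and 0.123 and 0.107 CPM with ACBI1. Nearly all of this was PECAM1, with 997 and 3461 counts against 1 and 3, while CDH5 had 2 and 4 counts against 0 and 0. The 5 blood markers reached at most 0.82 CPM, and CD3E had 0 counts in each library. The epithelial, fibroblast and endothelial sums were lower with ACBI1, as most collagen genes were, and the blood sums of the groups overlapped. The part of these markers in the results was not tested.

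Collagen transcripts were lower with ACBI1 in most classes. All 44 genes together held 0.490% and 0.480% of gene counts in the DMSO libraries and 0.146% and 0.127% in the ACBI1 libraries. Levels were also divided by the kilobases of exon, so that genes of different length can be added. The length merges all annotated exons of a gene and can exceed that of a single transcript. Ranks, ratios and shares per kilobase depend on it. The summed collagen level was 528 and 500 with DMSO and 127 and 116 with ACBI1, in CPM per kilobase. The mean was 4.22-fold lower with ACBI1, and the groups did not overlap. In bulk RNA of this kind, fewer cells of a type and less RNA per cell cannot be told apart.

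Of the 31 collagen genes, 18 were called lower, 1 was called higher and 12 were not called. A call means a Benjamini-Hochberg adjusted p under 0.05 in edgeR's quasi-likelihood test over all 19159 genes tested. Over those genes 17.4% were called, 10.6% lower and 6.75% higher. The 31 genes had a median of -1.90 on the log2 scale, against 0.01 over all genes tested. A call with a fall of at least 2 on the log2 scale was reached by 14 of the 31 and by 4.91% of all genes tested. The CPM of the groups did not overlap in 26 of the 31 genes, against 63.2% of all genes tested. In 24 of these the ACBI1 libraries were lower, against 32.2% of all genes, and in COL12A1 and COL19A1 they were higher, against 31.1%.

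Each of the 31 had 10 or more counts in both DMSO libraries, so the minimum was met by that group alone. Of these, 26 also had 10 or more in both ACBI1 libraries, and 17 of the 26 were called lower. The other 5 (COL11A1, COL5A3, COL4A3, COL28A1 and COL8A1) reached 10 counts in 1 ACBI1 library, and of them COL8A1 was called. These counts describe genes that passed the minimum and not the whole family. Of the 15 with a mean of at least 5 CPM, 13 were called when only genes at that level were tested, each of them lower, against 22.9% of all such genes called and 12.9% called lower. The exceptions at that level were COL1A1 and COL12A1.

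The number of collagen genes called is read against the share of all genes called in the same run. DESeq2's size factors gave 19 of 31 (17.5% of all genes), upper quartile scaling 19 (18.3%) and library size alone 18 (18.9%). DESeq2's own test gave 22 (23.5%), limma-voom 20 (17.3%), and edgeR without a filter 23 (16.8%). With a library left out the number was 15 without ACBI1 replicate 1 (6.89% of all genes), 18 without ACBI1 replicate 2 (8.84%), 19 without DMSO replicate 1 (21.3%) and 17 without DMSO replicate 2 (12.8%). At an adjusted p under 0.01 it was 12 (4.09%), and each of the 12 was lower: COL1A2, COL5A1, COL24A1, COL4A2, COL4A6, COL6A1, COL6A2, COL16A1, COL13A1, COL15A1, COL18A1 and COL7A1.

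**Figure D1:**
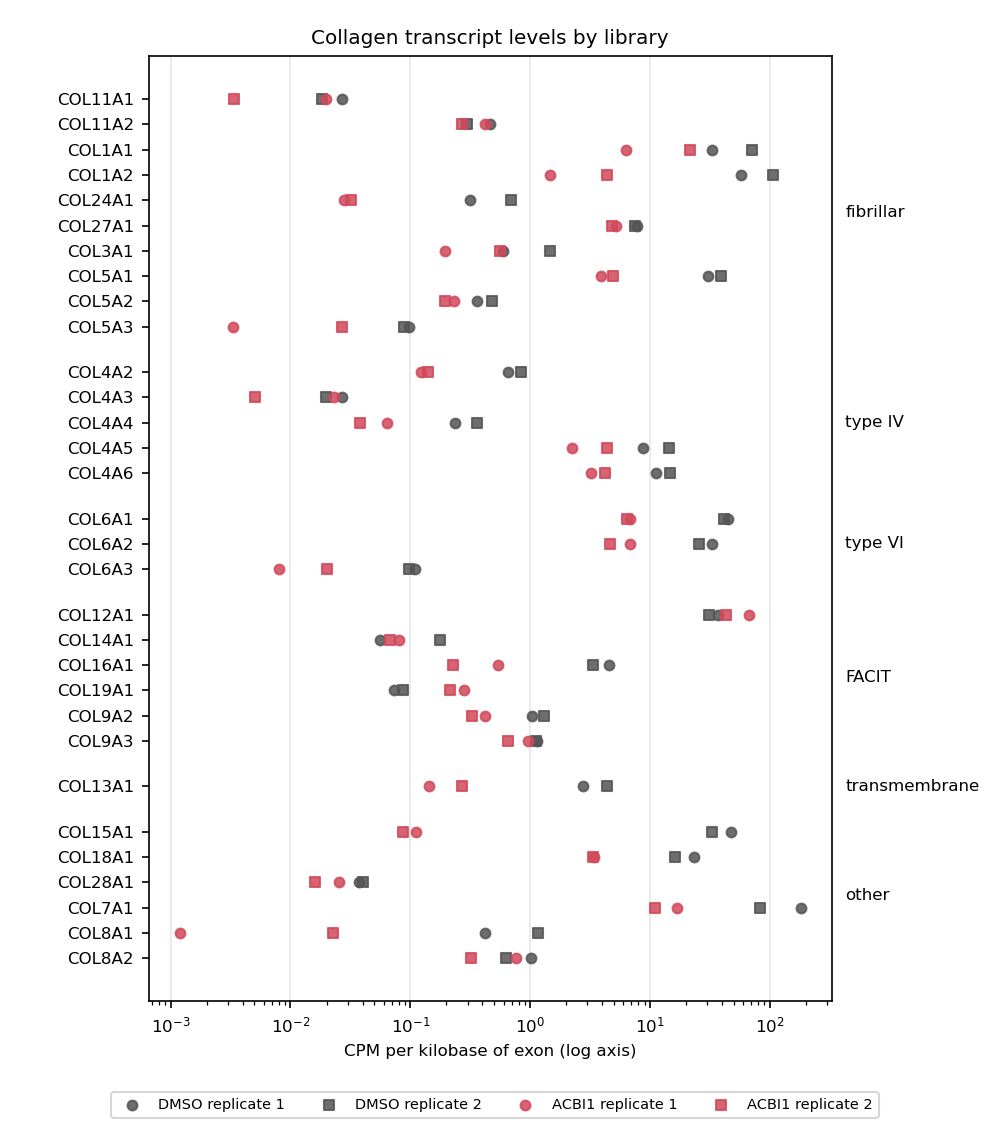
Level of each of the 31 collagen genes in each library, in CPM per kilobase of exon on a log axis, grouped by class; grey points are DMSO, red points ACBI1, circles replicate 1 and squares replicate 2. In 24 genes both red points lie left of both grey points, and in COL12A1 and COL19A1 they lie right of them.

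Fibrillar collagens are made of long uninterrupted helices, and type I, from COL1A1 and COL1A2, is the main one of most tissues. Of 11 fibrillar genes 10 passed the minimum. Of these 4 were called lower and none higher, against 10.6% and 6.75% of all genes tested. COL1A2 was at 646 and 1189 CPM with DMSO and at 16.5 and 48.4 CPM with ACBI1. Both ACBI1 libraries lay far below both DMSO libraries, and the fall was 28.3-fold, a log2 difference of -4.82 (SE 0.62, edgeR adjusted p 0.00731). Without ACBI1 replicate 1 the log2 difference of COL1A2 was -4.23, and without ACBI1 replicate 2 it was -5.81. COL1A1 was at 324 and 693 CPM with DMSO and at 62.3 and 210 CPM with ACBI1. The groups of COL1A1 did not overlap, but replicate 2 was 2.14 times replicate 1 with DMSO and 3.38 times with ACBI1, and the log2 difference of -1.90 (SE 0.62) was not called (adjusted p 0.0860).

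The size of the COL1A1 change turned on single libraries. Its log2 change was -3.04 without ACBI1 replicate 2 and -2.34 without DMSO replicate 1. Leaving out ACBI1 replicate 1 gave -1.27 and leaving out DMSO replicate 2 gave -1.25. With all libraries and no block, COL1A1 was not called by DESeq2 (adjusted p 0.141) or limma-voom (adjusted p 0.0693). Without a filter on low counts edgeR did call it (adjusted p 5.83e-17), at nearly the same log2 change of -1.91. So small an adjusted p, with replicates that far apart, is not read as support for a call. The same limit holds for calls that other genes gained without a filter. COL3A1, the chain of reticular fibres, was at 4.05 and 10.0 CPM with DMSO and at 1.32 and 3.78 CPM with ACBI1, with a log2 difference of -1.47 that was not called (adjusted p 0.161). Without DMSO replicate 1, COL3A1 was called lower (-1.98, adjusted p 0.0115), as it was by DESeq2 (adjusted p 0.0477) and without a filter (adjusted p 0.000466). It was not called at -2.42 without ACBI1 replicate 2, at -0.88 without ACBI1 replicate 1 or at -0.68 without DMSO replicate 2.

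Type V collagen starts and limits the growth of type I fibrils. Its COL5A1 chain was at 342 and 436 CPM with DMSO and at 43.2 and 54.9 CPM with ACBI1. The fall of COL5A1 was 7.93-fold (log2 change -2.99, SE 0.22, adjusted p 0.00231), and replicates of a group differed far less than the groups. COL5A2 was at 2.68 and 3.57 CPM against 1.72 and 1.46 CPM, a log2 difference of -0.97 that was not called by edgeR (adjusted p 0.0980) and was called lower by DESeq2 (adjusted p 0.0380). COL5A3 had 54 and 43 counts with DMSO and 2 and 12 with ACBI1. Its log2 difference of -2.69 was not called (adjusted p 0.0697) but was called by DESeq2 (adjusted p 0.0366), by limma-voom (adjusted p 0.0465), without a filter (adjusted p 9.78e-05) and without ACBI1 replicate 2 (-4.74, adjusted p 0.0219). Without ACBI1 replicate 1 it was at -1.77 and not called (adjusted p 0.177).

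COL24A1, a minor fibrillar chain, had 244 and 473 counts with DMSO and 24 and 20 with ACBI1, and fell 16.7-fold (log2 change -4.06, adjusted p 0.00715, or -3.39 without DMSO replicate 2). COL27A1, known from cartilage, was at 109 and 104 CPM with DMSO and at 73.4 and 67.3 CPM with ACBI1. That fall was 1.52-fold (log2 change -0.60, SE 0.15, adjusted p 0.0445), the smallest among the called collagen genes. The call on COL27A1 was lost when libraries were scaled by size alone (adjusted p 0.0626) and when any 1 of the 4 libraries was left out (adjusted p 0.0856 to 0.225). The type XI genes were low. COL11A2 was at 3.09 and 1.99 CPM against 2.82 and 1.83 CPM, and COL11A1 had 20 and 12 counts against 16 and 2. In neither did the groups separate, and neither was called (adjusted p 0.852 and 0.462). The log2 change of COL11A1, -0.90, became -2.69 when ACBI1 replicate 1 was left out and -0.22 when replicate 2 was. COL2A1, the chain of cartilage fibrils, had 1 to 3 counts per library.

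**Figure D2:**
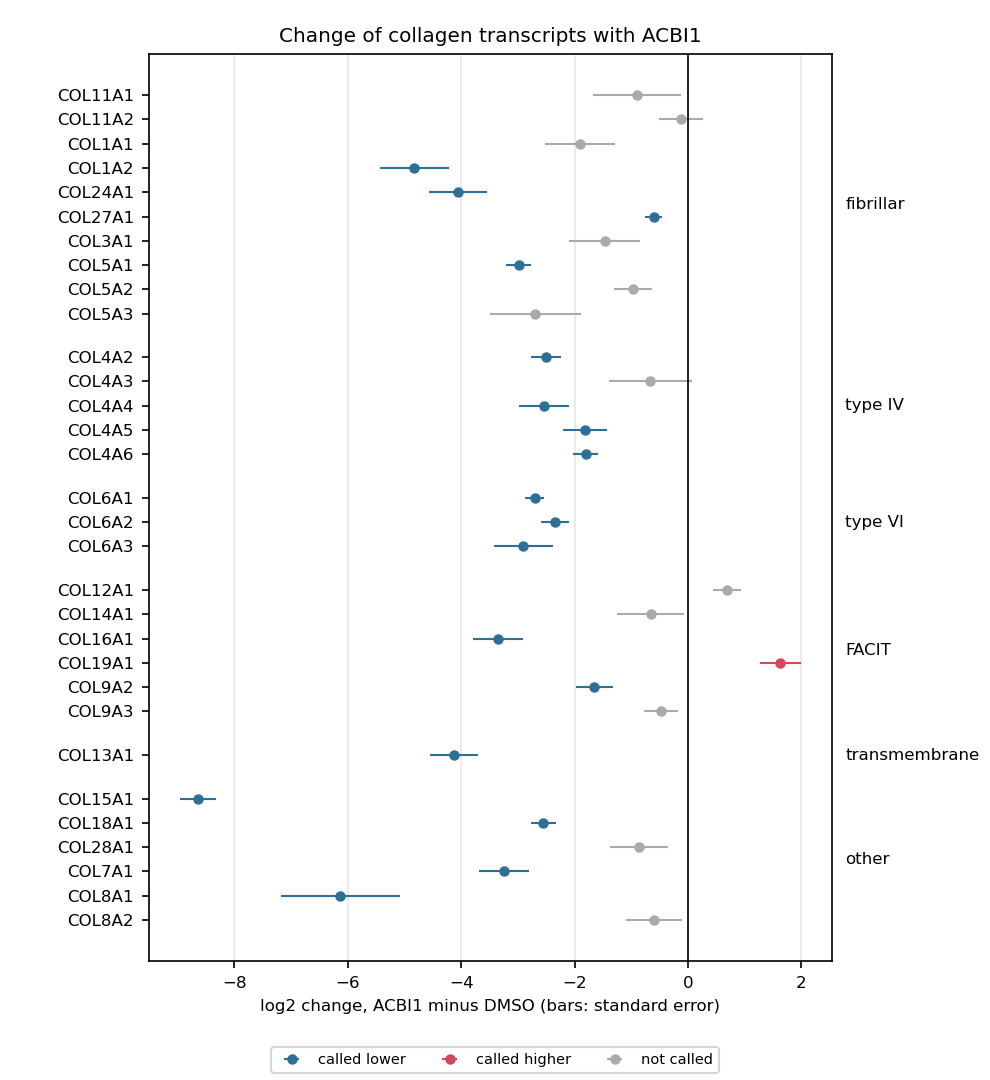
Log2 change of each of the 31 collagen genes, ACBI1 minus DMSO, with bars of 1 standard error derived from edgeR's test. Blue marks genes called lower, red called higher and grey not called. COL15A1 lies farthest left at -8.65, and COL19A1 at 1.63 is the one red point.

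The proportion of the type I chains differed between the groups. In DMSO replicates 1 and 2 there were 0.502 and 0.583 COL1A1 counts for each COL1A2 count. In ACBI1 replicates 1 and 2 there were 3.78 and 4.34, so that the more abundant transcript changed from COL1A2 to COL1A1. The groups differed by 2.91 on the log2 scale, far more than the replicates of either, with an exact permutation p of 0.33 (two-sided), the smallest that 2 against 2 libraries can give. The ratio is taken within a library and so does not depend on scaling between libraries. Per kilobase the ratio of COL1A1 to COL1A2 was 0.570 and 0.663 with DMSO and 4.30 and 4.94 with ACBI1.

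The ratio of COL5A1 to COL5A2 was lower with ACBI1. There were 128 and 122 COL5A1 counts for each COL5A2 count with DMSO, and 25.1 and 37.5 with ACBI1, a difference of -2.02 on the log2 scale (exact permutation p 0.33). In the remaining pairs the groups overlapped. COL6A1 and COL6A2 stood at 1.36 and 1.61 with DMSO against 0.992 and 1.37 with ACBI1 (exact permutation p 0.667). COL4A5 and COL4A6 stood at 1.01 and 1.26 against 0.885 and 1.33 (exact permutation p 1).

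**Figure D3:**
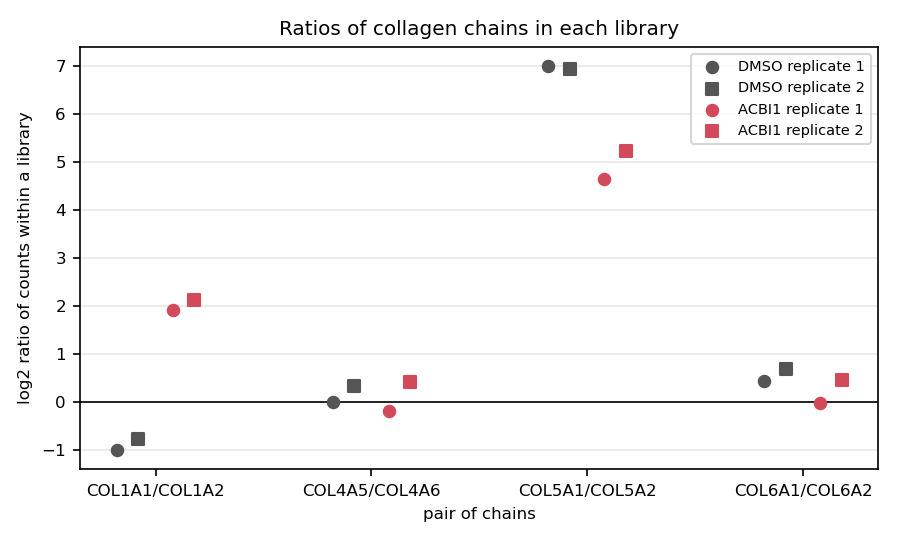
Log2 ratio of the counts of 2 collagen chains within each library, for the 4 pairs with 10 or more counts of both chains in each library; grey points are DMSO and red points ACBI1. The COL1A1/COL1A2 ratio lies below 0 in both DMSO libraries and near 2 in both ACBI1 libraries, while the COL4A5/COL4A6 points overlap.

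Type IV genes stand in head-to-head pairs, with the genes of a pair read in opposite directions from neighbouring starts. COL4A1 and COL4A2 encode the chains of the common basement membrane trimer, and the chains of COL4A3 to COL4A6 form trimers of more restricted membranes. Of 6 type IV genes 5 passed the minimum, and 4 of these were called lower, against 10.6% of all genes tested. COL4A5 was at 104 and 171 CPM with DMSO and at 26.4 and 51.8 CPM with ACBI1, a 3.52-fold fall (log2 change -1.82, SE 0.38, adjusted p 0.0275). COL4A6 was at 104 and 136 CPM against 29.8 and 39.0 CPM, a 3.48-fold fall (log2 change -1.80, SE 0.22, adjusted p 0.00657). These head-to-head neighbours on the X chromosome had similar levels, and both were lower in each ACBI1 library than in either DMSO library. The call on COL4A5 was lost without ACBI1 replicate 1 (-1.40, adjusted p 0.0616).

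COL4A2 was at 12.5 and 16.2 CPM with DMSO and at 2.36 and 2.71 CPM with ACBI1, a 5.67-fold fall (log2 change -2.50, adjusted p 0.00473). Its partner COL4A1 was nearly absent in both groups. COL4A1 had 8 and 15 counts with DMSO and 4 and 2 with ACBI1, and made up 0.780% and 1.27% of the counts of the pair with DMSO and 1.86% and 1.11% with ACBI1. By the exact Clopper-Pearson method, their 95% limits lay between 0.135% and 4.69%. COL4A1 did not pass the minimum, was not tested and was singled out after its counts were seen. No exon of another gene overlaps COL4A1 in GENCODE 29. COL4A4 had 195 and 263 counts against 58 and 25, a 5.82-fold fall (log2 change -2.54, adjusted p 0.0164), while its neighbour COL4A3 had 20 and 13 against 19 and 3, groups that overlapped (adjusted p 0.570). The log2 change of COL4A3, -0.66, became -2.17 when ACBI1 replicate 1 was left out and -0.02 when replicate 2 was. So COL4A5 and COL4A6 fell at like levels, and in each of the other pairs 1 gene held most of the counts in every library.

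The DNA near the starts is shown for COL4A1 with COL4A2 and for COL4A5 with COL4A6, which differ in this respect. That of COL4A3 and COL4A4, whose starts lie 419 bases apart, is not shown. Whether the sequence goes with the balance of a pair was not tested. Sequences are from RefSeq (GRCh38.p14; the count files are labelled hg38), which held windows for 23 of the 31 genes but not for COL1A1, COL1A2, COL3A1, COL5A2, COL6A1, COL14A1, COL9A3 or COL8A1. Each is given 5′ to 3′ towards the named gene and ends at the base before its start. The first is the whole 126 bases between the RefSeq starts of COL4A1 and COL4A2, at chr13:110307158-110307283 on the plus strand. The other type IV stretches are the 250 bases before COL4A5 (chrX:108439588-108439837, plus strand) and before the first listed start of COL4A6 (chrX:108439459-108439708, minus strand). These starts lie 380 bases apart, and the stretches share 121 bases. The last is the 250 bases before COL15A1 (chr9:98943657-98943906, plus strand), the collagen gene with the largest fall. Capitals mark CCAAT or GGGCGG on either strand.
COL4A1 to COL4A2: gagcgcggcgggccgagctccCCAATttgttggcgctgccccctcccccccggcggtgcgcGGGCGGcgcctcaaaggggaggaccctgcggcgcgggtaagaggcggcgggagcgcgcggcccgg
COL4A5: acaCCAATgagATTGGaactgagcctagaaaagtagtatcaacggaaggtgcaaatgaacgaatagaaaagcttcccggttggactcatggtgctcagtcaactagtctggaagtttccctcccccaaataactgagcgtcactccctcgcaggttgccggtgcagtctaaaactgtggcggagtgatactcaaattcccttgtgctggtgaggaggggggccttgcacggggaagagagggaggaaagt
COL4A6: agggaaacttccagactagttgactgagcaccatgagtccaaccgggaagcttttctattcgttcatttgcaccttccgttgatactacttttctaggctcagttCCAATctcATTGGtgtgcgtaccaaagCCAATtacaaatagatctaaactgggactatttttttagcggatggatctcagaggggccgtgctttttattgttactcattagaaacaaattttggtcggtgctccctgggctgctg
COL15A1: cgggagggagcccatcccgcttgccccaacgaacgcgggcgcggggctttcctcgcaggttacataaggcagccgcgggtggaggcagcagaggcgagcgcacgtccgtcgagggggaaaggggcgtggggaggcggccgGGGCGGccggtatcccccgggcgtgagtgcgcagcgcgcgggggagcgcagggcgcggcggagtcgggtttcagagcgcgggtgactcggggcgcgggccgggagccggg

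The stretch between the RefSeq starts of COL4A1 and COL4A2 was 80.2% G or C, with 1 CCAAT and 1 GGGCGG match. The COL4A5 and COL4A6 stretches were 51.2% and 44.0% G or C and held 2 and 3 CCAAT matches and no GGGCGG match. In the bases that they share lie 2 of the CCAAT matches. A window of COL4A6 did hold GGGCGG, outside the printed stretch. Over the 30 windows of 300 bases of the 23 genes (250 before to 50 after a start), GGGCGG was found in 66.7%, against 45.0% of all 35116 such windows. CCAAT was found in 26.7% against 34.6%, and TATAAA in 13.3% against 11.5%. TGANTCA, the letters of an AP-1 site, was found in none of the 30 and in 7.71% of all. Both strands were searched, a window can hold several of these motifs, and a match or its lack describes only the letters of the window.

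Type VI collagen is assembled from 1 chain each of COL6A1, COL6A2 and a longer chain, most often COL6A3. The 3 genes that passed the minimum, of 5, were each called lower, against 10.6% of all genes tested. COL6A1 was at 239 and 221 CPM with DMSO and at 36.6 and 34.2 CPM with ACBI1. Its replicates were nearly equal, and the fall was 6.50-fold (log2 change -2.70, SE 0.17, adjusted p 0.00141). COL6A2 was at 176 and 137 CPM against 36.9 and 24.9 CPM, a 5.06-fold fall (log2 change -2.34, adjusted p 0.00473). COL6A3 was far scarcer. It had 175 and 138 counts with DMSO and 14 and 26 with ACBI1, a 7.47-fold fall (log2 change -2.90, adjusted p 0.0178, or -3.70 without ACBI1 replicate 2). Per kilobase, mean DMSO levels were 43.1 for COL6A1, 29.1 for COL6A2 and 0.104 for COL6A3. The genes of the alternative longer chains were lower still, COL6A5 with 1 count in all and COL6A6 with 3.

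The FACIT genes went in both directions. Of 10 genes 6 passed the minimum, with 2 called lower, 1 higher and 3 not called. The shares over all genes tested were 10.6% lower and 6.75% higher. COL12A1, whose product coats type I fibrils, was at 457 and 391 CPM with DMSO and at 832 and 540 CPM with ACBI1. Both ACBI1 libraries were above both DMSO libraries, but the log2 difference of 0.69 (SE 0.25) was not called (adjusted p 0.111). It was called higher when no filter was applied to low counts (adjusted p 0.00861). DESeq2 (adjusted p 0.0550) and limma-voom (adjusted p 0.113) did not call it. COL19A1 was rare, with 51 and 53 counts against 213 and 120, and was called higher (3.09-fold, log2 change 1.63, SE 0.36, adjusted p 0.0310). It lost the call with any 1 library left out (adjusted p 0.0567 to 0.132), though the log2 change stayed between 1.43 and 1.79.

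COL16A1, a FACIT-like chain, was at 42.3 and 30.9 CPM with DMSO and at 5.04 and 2.09 CPM with ACBI1, a 10.2-fold fall (log2 change -3.35, adjusted p 0.00788, or -4.12 without ACBI1 replicate 1). COL9A2 and COL9A3 encode chains of type IX collagen, which decorates cartilage fibrils. COL9A2 had 355 and 397 counts against 158 and 90 (log2 change -1.65, adjusted p 0.0229), a call lost without either ACBI1 library (adjusted p 0.0582 and 0.0862). COL9A3 had 446 and 390 counts against 418 and 207 and was not called (log2 change -0.48, adjusted p 0.327). COL14A1, a relative of COL12A1, had 39 and 111 counts against 62 and 38, with overlapping groups (adjusted p 0.486). Its log2 difference of -0.66 became 0.41 without DMSO replicate 2 and -1.27 without DMSO replicate 1. COL9A1, COL20A1, COL21A1 and COL22A1 did not pass the minimum.

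Transmembrane collagens span the cell membrane and can be shed from it. Of 4 genes COL13A1, whose product lies at cell-matrix junctions, passed the minimum. It was at 16.3 and 25.8 CPM with DMSO and at 0.838 and 1.59 CPM with ACBI1, a 17.5-fold fall (log2 change -4.13, SE 0.42, adjusted p 0.00431). COL17A1, the collagen of hemidesmosomes, had 4 and 22 counts with DMSO and 1 and 2 with ACBI1. COL23A1 had 2 counts and COL25A1 had 1 to 4 in the libraries where they were found.

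Of the 8 remaining genes 6 passed the minimum and 4 of these were called lower, against 10.6% of all genes tested. COL15A1 and COL18A1 encode multiplexins, which sit at the border of basement membranes and release fragments named restin and endostatin. COL15A1 had 25517 and 15825 counts with DMSO and 66 and 38 with ACBI1, or 313 and 220 CPM against 0.737 and 0.580 CPM. Its 401-fold fall was the largest of the family (log2 change -8.65, SE 0.32, adjusted p 0.000700). COL18A1 was at 197 and 138 CPM against 28.8 and 28.5 CPM, a 5.85-fold fall (log2 change -2.55, adjusted p 0.00265). Exons of SLC19A1, on the other strand, cover 16.4% of the exonic length of COL18A1, and the strand setting of the counting is not given in the sources used here. Per kilobase, mean levels were 40.1 for COL15A1 and 19.6 for COL18A1 with DMSO, and 0.0990 and 3.36 with ACBI1, so that the order of the multiplexins turned around.

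COL7A1, the chain of the anchoring fibrils below stratified epithelia, had the highest mean CPM and mean level per kilobase among the collagens with DMSO. Its rank per kilobase could differ with the lengths of single transcripts. COL7A1 led in replicate 1, at 180 CPM per kilobase, while in replicate 2 it was at 83.1 and COL1A2 at 107. It was at 1995 and 920 CPM with DMSO and at 187 and 121 CPM with ACBI1. The DMSO replicates differed by a factor of 2.17, yet both lay well above the ACBI1 libraries, and the fall was 9.47-fold (log2 change -3.24, SE 0.43, adjusted p 0.00816, or -2.57 without DMSO replicate 1). COL8A1 and COL8A2 encode a short-chain collagen of vessel walls and the cornea. COL8A1 had 319 and 779 counts with DMSO and 1 and 14 with ACBI1. Its log2 difference of -6.13 (SE 1.05, adjusted p 0.0157) rested on those few counts and was -9.19 without ACBI1 replicate 2, -5.09 without ACBI1 replicate 1, -5.22 without DMSO replicate 2 and -6.83 by limma-voom. COL8A2 had 386 and 210 counts against 318 and 98, groups that overlapped (log2 change -0.60, adjusted p 0.442). Leaving out ACBI1 replicate 1 gave -1.35 and leaving out ACBI1 replicate 2 gave -0.12, neither called. COL28A1 had 20 and 19 counts against 15 and 7 and was not called (adjusted p 0.282).

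The 13 genes below the minimum held at most 0.0239% of collagen counts in a library. Closest to it from below were COL4A1, COL17A1 and COL21A1, with 15, 22 and 13 counts in DMSO replicate 2 and fewer than 10 in each other library. Closest from above were COL11A1, COL4A3 and COL28A1, each given with its class. COL10A1 had 4 to 9 counts per library and COL26A1 had 0 to 5. Genes below the minimum were singled out for mention after their counts were seen.

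With most collagens lower and COL12A1 not, the make-up of the collagen pool differed between the groups. COL12A1 made up 6.95% and 6.27% of the summed level per kilobase with DMSO and 52.3% and 37.3% with ACBI1. COL7A1 made up 34.1% and 16.6% with DMSO and 13.2% and 9.42% with ACBI1. COL15A1 went from 8.93% and 6.61% to 0.0867% and 0.0750%. The fibrillar class as a whole was at 131 and 227 CPM per kilobase with DMSO and at 17.8 and 36.6 with ACBI1. Its share was 24.8% and 45.3% against 14.0% and 31.5%, so that the shares of the groups overlapped although the levels did not.

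Summed per kilobase, type IV was at 20.9 and 30.3 with DMSO against 5.65 and 8.75 with ACBI1, and type VI was at 77.5 and 67.0 against 13.7 and 11.1. The FACIT class was at 43.5 and 37.4 against 69.0 and 44.8, nearly all of it COL12A1. The transmembrane class was at 2.79 and 4.43 against 0.149 and 0.274, and the remaining types at 252 and 134 against 21.2 and 14.7. In each class the libraries of the 2 groups did not overlap. These sums are descriptions and carry no test.

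**Figure D4:**
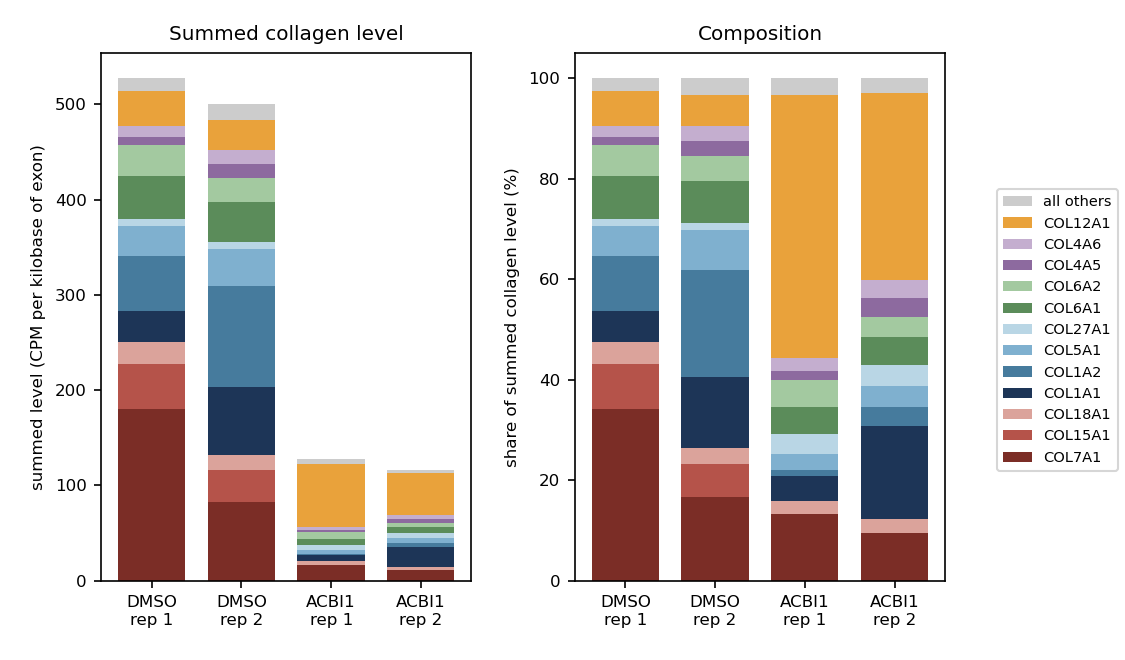
Summed collagen level per library in CPM per kilobase of exon (left) and the share of each gene in that sum in percent (right), for 12 named genes and all others together. COL12A1 fills 52.3% and 37.3% of the ACBI1 bars and less than 7% of the DMSO bars.

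Genes that act on collagen were read from 6 lists with 88 genes, of which 84 could be tested. Of these, 46 were called lower and 4 higher, with a median log2 difference of -1.11, against 10.6% called lower and 6.75% called higher over all genes tested. Among genes for hydroxylation and folding of new chains, 13 of 18 were called lower and none higher. SERPINH1, which encodes the collagen chaperone HSP47, was at 513 and 577 CPM with DMSO and at 70.0 and 56.0 CPM with ACBI1 (log2 change -3.11, adjusted p 0.00182). P4HA2, a catalytic subunit of prolyl hydroxylase, was at 243 and 309 CPM against 26.8 and 25.1 CPM (log2 change -3.41, adjusted p 0.00141). Its paralogue P4HA1 had a log2 difference of -0.97 (adjusted p 0.0419), and that call was lost without DMSO replicate 2, without either ACBI1 library (adjusted p 0.0776 to 0.173) and with scaling by size alone. P4HB, the shared partner subunit, had a log2 difference of -1.49 (adjusted p 0.0218, or 0.0789 without ACBI1 replicate 1). PPIB, a prolyl isomerase of which SNX22 overlaps 27.2% of the exonic length, had one of -1.67 (adjusted p 0.00870).

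Secretion, trimming and crosslinking went both ways. Of 17 tested genes 7 were called lower and 3 higher, against 10.6% and 6.75% of all genes tested. LOX, the founding lysyl oxidase, was at 205 and 342 CPM with DMSO and at 43.9 and 45.5 CPM with ACBI1 (log2 change -2.61, adjusted p 0.00455). LOXL1 had a log2 difference of -2.77 (adjusted p 0.00252). PCOLCE, an enhancer of procollagen trimming, had one of -2.51 (adjusted p 0.00532), and PCOLCE-AS1 covers 16.6% of its exonic length. TLL2, a protease in this list, had 6 and 6 counts against 35 and 36 and was called higher (log2 change 2.55, edgeR adjusted p 0.0242). That call was lost with any 1 library left out, and whether its product acts on collagen here was not tested.

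Among 10 collagen receptors, 5 were called lower and 1 higher, against 10.6% and 6.75% of all genes tested. ITGA11, the integrin chain for fibrillar collagen, was at 204 and 290 CPM with DMSO and at 1.71 and 7.03 CPM with ACBI1 (log2 change -5.83, adjusted p 0.00653). Without ACBI1 replicate 1 its log2 change was -5.12, and without ACBI1 replicate 2 it was -7.18. ITGA1, whose integrin also binds type IV collagen, was at 211 and 326 CPM against 12.4 and 15.8 CPM (log2 change -4.25, adjusted p 0.00193). ADGRG1, an adhesion receptor, had a log2 difference of -3.68 (adjusted p 0.00514). ITGA2, at 309 and 383 against 145 and 237 CPM, was not called (log2 change -0.86, adjusted p 0.0798). Without ACBI1 replicate 2 or DMSO replicate 1, and by DESeq2 or without a filter, ITGA2 was called lower. DDR2, a receptor kinase for fibrillar collagen, had a log2 difference of -1.51 (adjusted p 0.0355). Leaving out ACBI1 replicate 1 gave -2.11, and leaving out ACBI1 replicate 2 gave -1.09, no longer called. DDR1 had one of -1.11 (adjusted p 0.0522), called lower without DMSO replicate 1 (adjusted p 0.000273), by DESeq2 and without a filter.

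Of 6 tested genes for collagen degradation, 3 were called lower and none higher, against 10.6% and 6.75% of all genes tested. The log2 differences of the 3 genes not called were 0.47 for MMP15, 0.33 for MMP16 and -0.41 for CTSK, named after their values were seen. MMP14, the membrane-bound collagenase, was at 1741 and 884 CPM with DMSO and at 225 and 199 CPM with ACBI1 (log2 change -2.63, adjusted p 0.00788). MMP2, a gelatinase that MMP14 activates, had a log2 difference of -2.38 (adjusted p 0.00607). MMP1, the interstitial collagenase, was rare, with 81 and 139 counts against 35 and 10 (log2 change -2.39, adjusted p 0.0428). The call on MMP1 was lost without ACBI1 replicate 2 (-1.91) and without DMSO replicate 2 (-1.84), and its log2 change was -3.24 without ACBI1 replicate 1.

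Matrix partners of collagen had 14 of 22 genes called lower and none higher, against 10.6% and 6.75% of all genes tested. DCN, the fibril-binding proteoglycan decorin, had 300 and 543 counts against 4 and 7 (log2 change -6.24, adjusted p 0.00425; leaving out DMSO replicate 2 gave -5.64 and ACBI1 replicate 2 gave -6.93). LUM, its relative lumican, had a log2 difference of -3.19 (adjusted p 0.0319), which was no longer called without ACBI1 replicate 1 (-2.60, adjusted p 0.0717), -4.15 without ACBI1 replicate 2, -3.78 without DMSO replicate 1 and -2.20 without DMSO replicate 2. LAMB3, which encodes a laminin chain of epithelial basement membranes, had a log2 difference of -3.98 (adjusted p 0.0224), and it was at -5.73 without ACBI1 replicate 1 and -3.24 without ACBI1 replicate 2.

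TGF-beta signalling is a pathway known to raise collagen transcription. Of 11 TGF-beta genes listed, 4 were called lower and none higher, against 10.6% and 6.75% of all genes tested. TGFBR1, a receptor, had a log2 difference of -1.28 (adjusted p 0.00935), and SMAD7, an inhibitor of the pathway, one of -1.43 (adjusted p 0.0190, or 0.0611 without ACBI1 replicate 1). TGFB2, a ligand of which TGFB2-OT1 overlaps 26.6% of the exonic length, had one of -0.91 (adjusted p 0.0480). The call on TGFB2 was lost without DMSO replicate 2, without either ACBI1 library, with scaling by size alone or by upper quartiles, and by limma-voom.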

How the data were processed

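The authors deposited raw counts of reads per gene symbol, 1 file per library. Per the submitters' processing notes TopHat2 2.1.1, HTSeq 0.11.0 and the build hg38 were used; annotation, strand setting and RNA selection are not given in the sources used here. The 5 closing lines of each file (reads in no gene, ambiguous or multiply aligned) were left out, and 84.6% to 86.1% of the reads listed were in genes. Groups and replicate numbers came from the titles.

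Genes were filtered with filterByExpr (minimum count 10, minimum total 15), scaled by TMM, whose factors ran from 0.958 to 1.04, and compared by the quasi-likelihood test of edgeR 4.0.16 under R 4.3.3 (two-sided, treatment alone, Benjamini-Hochberg over 19159 genes). CPM are per TMM-scaled library size, and n = 2 libraries per group throughout. Each SE was derived from the edgeR test, as the absolute log2 change divided by the square root of its F statistic. Exonic lengths (all annotated exons of a gene merged) and overlaps came from GENCODE 29, matched by symbol. Counting intervals cover counting error only. Counts were simulated for this comparison (19159 genes) with independent libraries and the spread fitted as a trend over level. In them the edgeR test found 33.7% of genes at a log2 change of 1, 74.2% at 2 and 100% at 4. Spread particular to a gene and effects shared by replicates were not simulated, so these rates need not hold for the data.

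The members and lists were chosen with earlier results of these data known. Each of the 31 collagen genes is named, and in each other list up to 4 called genes with the largest change. Also named are SERPINH1, P4HA1, LOX, ITGA2, DDR1 and MMP1, with SMARCA4, SMARCA2 and PBRM1 as targets of the degrader. Some genes that this rule would name are not reported here. Alternatives were other scalings, filters, a replicate block, DESeq2 1.42.0, limma-voom (limma 3.58.1), a threshold of 0.01 and leaving out each library.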

Additional observations from a re-analysis of the deposited data

How the results depend on the processing

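Among 31 collagen genes, 19 were called, and 18 to 23 were called under the other scalings, without a filter, by DESeq2 or by limma-voom. The 23 came from the run without a filter, in which the adjusted p of COL1A1 was 5.83e-17 against 0.0860 in the main run. In the main run at an adjusted p under 0.01 the number was 12, each lower. With a library left out it was 15 to 19. Leaving out each library was planned for the values; taking calls from those runs was added after seeing the data, and it assumes that the lone library of a group varies like the others. Over all genes 3331 were called, against 783 at 0.01, 5518 without a filter and 1379 to 4292 with a library left out. Of the 84 other pathway genes 50 were called, against 22 at 0.01 and 31 to 58 with a library left out. Among genes not called, COL11A2 ranged from -0.47 to 0.23 and COL14A1 from -1.27 to 0.41 with a library left out. The summed collagen level changed by -2.08 on the log2 scale, or by -1.92 without division by length, and by -2.15 to -2.01 with a library left out. The FACIT sum rose by 0.15 to 0.77 in such runs. The cause of these differences was not tested.

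With the replicate number as a block, 7909 genes (41.3%), 24 of 31 collagen genes (22 lower, 2 higher) and 68 pathway genes were called. COL1A1, COL3A1, COL5A2, COL5A3 and COL12A1 gained a call. The labels do not say that a number marks a shared batch, and with 2 numbers the correlation of same-numbered deviations over genes (0.442) is a hint from the data only.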

Other observations

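The replicates of a group differed in their collagen levels. Of the 31 genes, 10 were higher in replicate 2 and 13 were higher in replicate 1 in both groups, and 8 went opposite ways. COL1A1, COL1A2 and COL3A1 were among the first, with replicate 2 at 2.14, 1.84 and 2.47 times replicate 1 with DMSO and at 3.38, 2.94 and 2.87 times with ACBI1. COL7A1, COL15A1 and COL6A2 were among the second, at 0.461, 0.702 and 0.780 times with DMSO and 0.649, 0.786 and 0.676 times with ACBI1. These values carry no test, and genes were not counted in this way over the whole series. Over all genes tested, deviations of same-numbered libraries correlated at 0.442, so the pattern is not read as particular to collagen genes.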
